A study of Mus musculus with 6 samples.

Results

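Chemokine receptors were examined in dendritic cells grown from the marrow of mice that had received bone marrow from UV-irradiated or naive donors. The 9 genes were named by symbol: the CC receptors Ccr1, Ccr2, Ccr3, Ccr4, Ccr6 and Ccr7, the CXC receptor Cxcr4, the CX3C receptor Cx3cr1 and the XC receptor Xcr1. Each had 1 probe set carrying its symbol alone, so all 9 were found among the 19938 genes so named on the arrays, and 7 of the 9 were bright enough to be tested with 13956 genes in all. The choice of the 9 used no measured value, although earlier results of these data were known when it was made.

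The study compared 2 groups of 3 Affymetrix whole-transcript arrays. In the UV-donor group, female C57BL/6J mice had received 2000000 marrow cells of a congenic B6.SJL-Ptprca donor, which carries the CD45.1 alloantigen, whose shaved back had been given up to 8 kJ/m2 of broadband UV. In the naive-donor group, the same recipient strain had received the same number of cells from an untreated B6.SJL-Ptprca donor. Irradiated mice were generally 6 to 10 weeks old, and the ages of recipients are not given in the sources used here. In both groups, recipient marrow was cultured for 5 days in GM-CSF and IL-4 at 10 ng/ml each, and CD11c-positive cells were bead-enriched to over 95%. The labels do not say that the triplicate preparations came from separate recipients, nor what share of the cultured cells was donor-derived. All p-values here are set against the spread between preparations, and that spread may be technical.

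Chemokine receptors are 7-transmembrane proteins that couple to inhibitory G proteins and steer leukocytes along gradients of small secreted chemokines. In dendritic cells, inflammatory receptors such as CCR1, CCR2 and CCR6 serve recruitment into tissue, whereas CCR7 guides mature cells through lymph vessels to lymph nodes. CXCR4 holds progenitors and neutrophils in the marrow, and CCR4 is best known from T helper 2 cells, regulatory T cells and skin-homing T cells.

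The deposited values are log2 signals, on which a difference of 1 is a doubling. Signals of different probe sets share no scale, so levels are compared here between arrays and not between genes. A gene was tested if its mean over the 6 arrays reached a log2 signal of 6.58, the 30th percentile of all genes. Differences are UV-donor minus naive-donor, and a gene was called at a limma adjusted p under 0.05 (two-sided, Benjamini-Hochberg over all tested genes).

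Of the 9 receptor genes, Ccr4 alone was called. It was 1.40-fold higher in the UV-donor group, with groups that did not overlap. Ccr6 also had higher values on every UV-donor array without passing the test, and Cxcr4 had a higher mean with overlapping groups. For Ccr1, Ccr2, Ccr7 and Cx3cr1 the 2 groups lay on top of each other, with differences between -0.03 and 0.04. Ccr3 and Xcr1 stayed below the signal cutoff on every array.

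The DNA upstream of 3 of these genes is shown because they span the range of outcomes: Ccr4 was called, Ccr6 did not overlap between groups without a call, and Ccr1 had the tested difference nearest 0. Each run is the 250 bases before a RefSeq transcript start (GRCm38.p6), 5′ to 3′ on the strand of the gene, and capitals mark matches to the motifs named below. The Ccr4 run is at chr9:114496545-114496794 on the minus strand and lies inside the annotated gene, whose outermost start is farther upstream. The Ccr6 run is at chr17:8235793-8236042 on the plus strand, and the Ccr1 run at chr9:123968693-123968942 on the minus strand.
Ccr4: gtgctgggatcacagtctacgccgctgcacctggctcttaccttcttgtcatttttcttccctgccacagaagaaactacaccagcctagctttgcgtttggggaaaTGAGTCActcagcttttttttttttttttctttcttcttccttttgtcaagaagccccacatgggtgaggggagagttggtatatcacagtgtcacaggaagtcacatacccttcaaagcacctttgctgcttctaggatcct
Ccr6: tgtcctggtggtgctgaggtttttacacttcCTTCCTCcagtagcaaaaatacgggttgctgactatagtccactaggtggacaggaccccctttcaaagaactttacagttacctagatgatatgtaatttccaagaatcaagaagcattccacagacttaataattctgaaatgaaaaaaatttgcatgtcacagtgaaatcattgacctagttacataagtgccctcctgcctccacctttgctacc
Ccr1: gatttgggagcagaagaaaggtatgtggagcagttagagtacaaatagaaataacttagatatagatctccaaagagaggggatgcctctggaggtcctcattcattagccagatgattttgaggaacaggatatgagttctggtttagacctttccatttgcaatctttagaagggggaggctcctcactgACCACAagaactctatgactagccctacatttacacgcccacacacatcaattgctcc

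Motifs of 6 factor families of myeloid and T cells were searched, on both strands and with no mismatch, in the 9 such windows given for 8 of the receptor genes. No window was given for Ccr7, and 2 were given for Ccr6. The AP-1 motif TGANTCA occurred upstream of Ccr4 and Ccr3, and in 6.75% of all 32851 windows of this length. The PU.1 motif GAGGAAG occurred upstream of Ccr6 (10.6% of all windows), in the reverse orientation as printed. The RUNX motif TGTGGT occurred, upstream of Ccr1, also reversed, and of Cx3cr1 (14% of all windows). The GATA motif AGATAA was found for Ccr2, Ccr3 and the second start of Ccr6 (9.99% of all windows). The palindromic STAT motif was searched only as TTC and GAA with NNNN, any bases, between them (5.85% of all windows). This form and the tandem IRF motif (2.98%) were found for none of the 8. Other spacings of the STAT motif were not searched, and the Ccr6 run above holds TTC and GAA with NNN between them. Matches of marked motifs in these windows did not overlap each other. They describe the letters only, and binding was not measured.

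Ccr4 encodes the receptor for CCL17 and CCL22. Its log2 signals (probe set 10597420) were 7.16, 7.11 and 7.07 on the UV-donor arrays and 6.69, 6.60 and 6.59 on the naive-donor arrays. All 3 UV-donor values lay above all 3 naive-donor values, with a gap of 0.38 between the nearest arrays. The means were 7.11 ± 0.04 in the UV-donor group and 6.63 ± 0.06 in the naive-donor group (SD, n = 3 each). The difference was 0.49 (SE 0.05, 95% interval 0.37 to 0.61), or 1.40-fold with an interval of 1.29-fold to 1.52-fold (limma adjusted p = 0.0199). Among all tested genes 24, or 0.172%, were called, every one of them higher in the UV-donor group. All 6 Ccr4 signals were above the cutoff for dim genes, so the gene did not enter the test through 1 group alone, although the naive-donor signals lay only just above it. In RNA from whole preparations, more cells carrying a transcript and more transcript per cell cannot be told apart.

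The size of the Ccr4 difference moved little with the arrays used, from 0.46 to 0.52 when each was left out in turn, whereas its call depended on them. The call was lost without UV-donor replicate 2 (limma adjusted p = 0.0788), UV-donor replicate 3 (0.0824), naive-donor replicate 1 (0.108) or naive-donor replicate 3 (0.122), and kept without UV-donor replicate 1 (0.0364) or naive-donor replicate 2 (0.0465). Testing all 35556 probe sets together left the difference at 0.49 with a limma adjusted p of 0.271. The count over all genes depended on the same arrays: 1 gene was called without UV-donor replicate 2, UV-donor replicate 3 or naive-donor replicate 1, and 3 without naive-donor replicate 3.

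**Figure D1:**
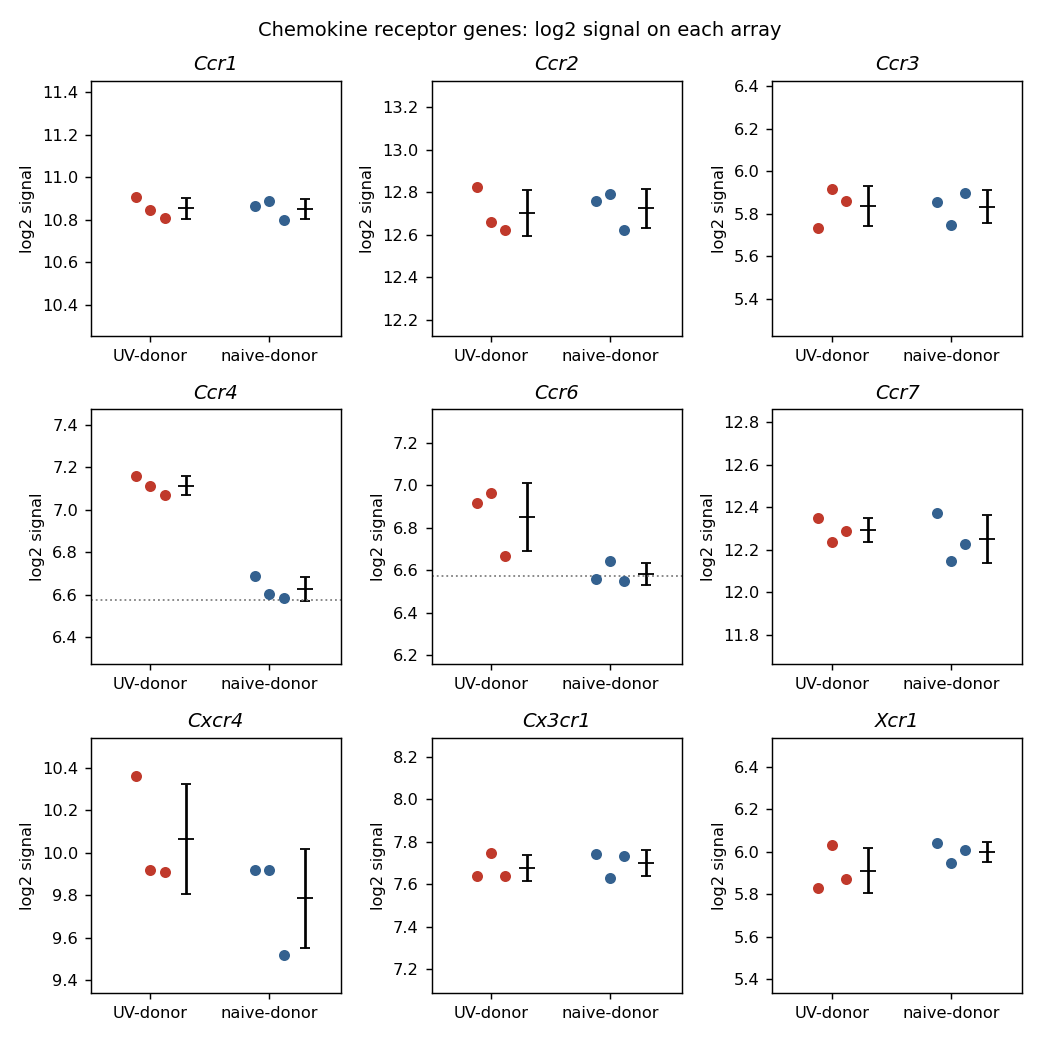
Log2 signal of each of the 9 chemokine receptor genes on the UV-donor arrays (red, left) and naive-donor arrays (blue, right), with the mean and SD of each group in black (n = 3). Every panel spans the same log2 range, and the dotted line is the cutoff for dim genes (6.58) where it falls in the panel. The Ccr4 values of the groups are separated by 0.38 and those of Ccr6 by 0.03, while the groups overlap for the other 7 genes.

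**Figure D2:**
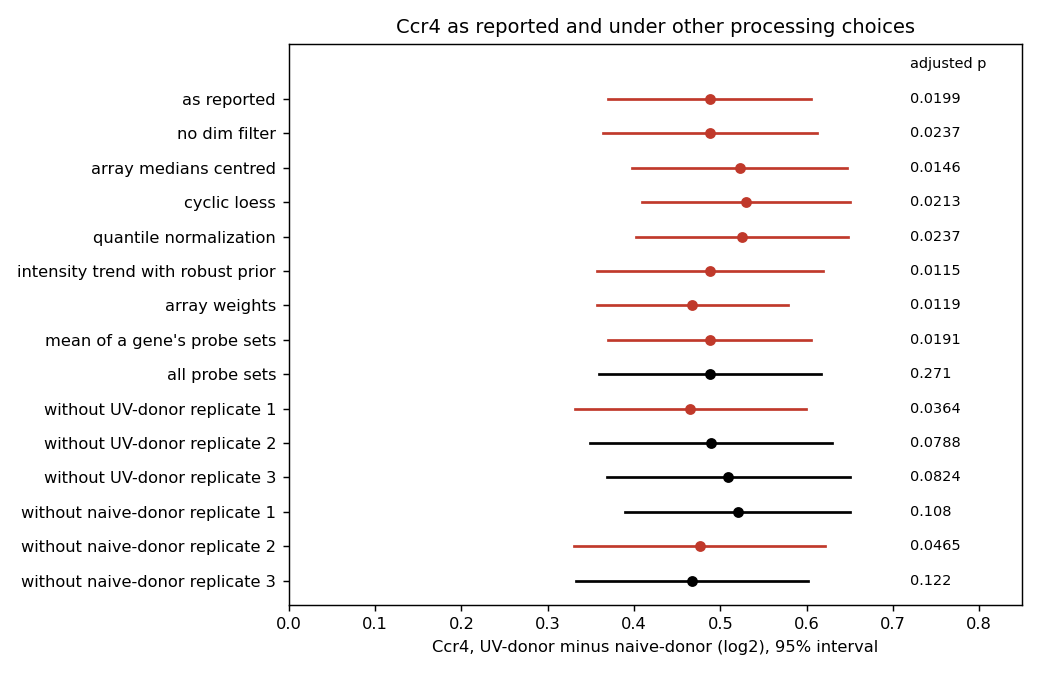
Difference of Ccr4 between the UV-donor and naive-donor groups on the log2 scale with its 95% interval, as reported, under 8 other settings of the filter, scaling, fit or probe sets and with each array left out, with the limma adjusted p at the right. Red marks an adjusted p under 0.05. The points shown lie between 0.46 and 0.53, while the call is lost with all probe sets tested together and without any 1 of 4 single arrays. It is also lost in a fit with the replicate number as a block, which is not drawn.

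Across all probe sets the arrays were closely alike, with Pearson correlations of 0.995 to 0.997 within groups and 0.995 to 0.996 between groups. The cells carried the genes of dendritic cells: Itgax, the CD11c gene, averaged 13.73 on the UV-donor arrays and 13.77 on the naive-donor arrays, and 7 of 8 listed markers were above the cutoff, Flt3 being the exception. Among the 7, the lectin gene Cd209a was called. Some markers of other cells differed between the groups, and others in the same lists did not. Of 10 neutrophil markers, a list that includes Cxcr2, 8 had higher UV-donor values and 2, S100a8 and Ltf, were called, where 7059 of all 13956 tested genes had higher values and 0.172% were called. Averaged over the 10 genes, the arrays lay at 9.21 to 9.34 (UV-donor) and 8.84 to 8.97 (naive-donor). The differences of single genes ran from -0.03 to 1.03 (Ngp). Of 8 macrophage markers 5 had higher values and 1, C1qb, was called, and the list averaged 10.12 to 10.15 (UV-donor) and 9.87 to 9.93 (naive-donor). Differences in that list ran from -0.10 to 0.63 (C1qb). All 9 tested proliferation genes had higher values on every UV-donor array than on any naive-donor array, and all 9 had an unadjusted p under 0.05 (12.4% and 9.6% of all tested genes, UV-donor higher). Their median difference was 0.52, beside 0.49 for Ccr4, and 0 of the 9 were called. Of 5 monocyte, 3 basophil and mast cell, 2 B cell and 5 plasmacytoid dendritic cell markers tested, 0 were called. The monocyte list averaged 10.775 to 10.89 (UV-donor) and 10.50 to 10.73 (naive-donor), with 3 differences positive and 2 negative. The plasmacytoid list averaged 8.15 to 8.21 (UV-donor) and 8.01 to 8.13 (naive-donor), also with 3 positive and 2 negative. Averages of the basophil and mast cell list and of the B cell list overlapped between the groups.

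T cells, the best known carriers of CCR4, were looked for by their markers. Of 7 T and NK cell genes with a probe set of their own 5, among them Cd3d, Cd3g and Cd4, were below the cutoff, and the 2 tested differed by 0.07 (Cd3e) and -0.10 (Il7r) without a call. The mean of these 2 lay at 9.58 to 9.64 (UV-donor) and 9.54 to 9.73 (naive-donor). The part of T cells, neutrophils, macrophages, the other listed cell types or dividing cells in the differences of Ccr4, Ccr6 and Cxcr2 was not tested.

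Ccr6, the receptor for CCL20, had log2 signals (probe set 10441633) of 6.92, 6.97 and 6.67 on the UV-donor arrays and 6.56, 6.64 and 6.55 on the naive-donor arrays. The groups did not overlap, but the lowest UV-donor array exceeded the highest naive-donor array by only 0.03. The means were 6.85 ± 0.16 in the UV-donor group and 6.58 ± 0.05 in the naive-donor group (SD, n = 3 each), which puts the difference at 0.27 (95% interval 0.08 to 0.45). The gene did not pass the test (limma adjusted p = 0.196, unadjusted p = 0.00984). Only 4 of its 6 signals reached the cutoff for dim genes, and the 2 below it were naive-donor arrays. Groups without overlap, UV-donor higher, made up 12.4% of all tested genes, against 2 of the 7 tested receptors.

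Cxcr4, the receptor for CXCL12, varied most between arrays of 1 group. Its log2 signals (probe set 10357472) were 10.36, 9.92 and 9.91 on the UV-donor arrays and 9.92, 9.92 and 9.52 on the naive-donor arrays. The higher UV-donor mean came from a high UV-donor replicate 1 and a low naive-donor replicate 3, while the other 4 arrays were alike. The means were 10.06 ± 0.26 in the UV-donor group and 9.78 ± 0.23 in the naive-donor group (SD, n = 3 each). The difference was 0.28, its 95% interval of -0.06 to 0.62 spanned 0, and the limma adjusted p was 0.398. Without UV-donor replicate 1 the difference was 0.13, and without naive-donor replicate 3 it was 0.15. UV-donor replicate 1 was also the array with the highest mean over 9 tested proliferation genes, 10.80. That mean was 10.39 for UV-donor replicate 2 and 10.35 for UV-donor replicate 3. It was 9.83, 10.20 and 9.92 for naive-donor replicates 1, 2 and 3, so naive-donor replicate 3, lowest for Cxcr4, was not the lowest here. The 5 tested markers of haematopoietic progenitors, another population known to carry CXCR4, averaged 8.07 to 8.15 in the UV-donor group and 7.75 to 7.97 in the naive-donor group, with 0 called. That average rested mostly on Cd34 (difference 0.76). Kit differed by 0.19 with overlapping groups and Gata2 by 0.12, the median of the list, in which 4 differences were positive and 1 negative. The part of dividing cells or progenitors in the Cxcr4 values was not tested.

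Ccr7, the lymph node homing receptor of mature dendritic cells, had log2 signals (probe set 10390763) of 12.35, 12.24 and 12.29 on the UV-donor arrays and 12.37, 12.15 and 12.23 on the naive-donor arrays. Its groups overlapped, with the highest and the lowest signal both in the naive-donor group. The difference was 0.04 (95% interval -0.11 to 0.19, limma adjusted p = 0.801), so that the interval ran from 0.927-fold to 1.14-fold. Of 7 tested markers of migratory mature dendritic cells, fixed as a list with Ccr7 left out, 0 were called. Fscn1, the actin-bundling protein fascin of mature dendritic cells, differed by 0.41 (limma adjusted p = 0.224), Relb, an NF-kB subunit, by 0.12 (0.345) and Cd83 by 0.11 (0.445). The groups of Fscn1 and Relb did not overlap, UV-donor higher, as in 12.4% of all tested genes, and those of Cd83 did. Of all tested genes 0.172% were called.

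Ccr2, the receptor for CCL2 that brings monocytes and their progeny into inflamed tissue, had log2 signals (probe set 10590631) of 12.83, 12.66 and 12.62 on the UV-donor arrays and 12.76, 12.79 and 12.62 on the naive-donor arrays. The ranges nearly coincided, and the difference was -0.02 (95% interval -0.18 to 0.14, limma adjusted p = 0.919). Ccr1, a receptor for CCL3 and CCL5, had signals (probe set 10598004) of 10.91, 10.85 and 10.81 on the UV-donor arrays and 10.86, 10.89 and 10.80 on the naive-donor arrays. Its difference was 0.0025 (95% interval -0.11 to 0.12, limma adjusted p = 0.988). As folds, these intervals ran from 0.880 to 1.10 for Ccr2 and from 0.925 to 1.09 for Ccr1.

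Cx3cr1, the fractalkine receptor of monocytes and resident macrophages, had log2 signals (probe set 10597743) of 7.64, 7.75 and 7.64 on the UV-donor arrays and 7.74, 7.63 and 7.73 on the naive-donor arrays. The groups overlapped over nearly their whole range. Their means differed by -0.03, with a 95% interval of -0.15 to 0.10 (limma adjusted p = 0.865). The upper bound of the Ccr1, Ccr2, Ccr7 and Cx3cr1 intervals was at most 0.19, below the lower bound of 0.37 for Ccr4. The intervals of Ccr6 and Cxcr4 reached into that of Ccr4, and differences between genes were not tested.

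Ccr3, the eotaxin receptor of eosinophils and basophils, had log2 signals (probe set 10590628) of 5.73, 5.92 and 5.86 on the UV-donor arrays and 5.85, 5.75 and 5.90 on the naive-donor arrays. Xcr1, the receptor that marks cross-presenting type 1 conventional dendritic cells (cDC1), had signals (probe set 10597996) of 5.83, 6.03 and 5.87 on the UV-donor arrays and 6.04, 5.95 and 6.01 on the naive-donor arrays. Both genes lay below the cutoff on all 6 arrays, their groups overlapped, and they were not tested. Their mean differences were 0.0031 for Ccr3 and -0.09 for Xcr1. Clec9a, another defining marker of cDC1, was below the cutoff as well, as were Epx of eosinophils and Mcpt8 and Fcer1a of basophils. Of the 6 tested cDC1 markers 0 were called, and they averaged 9.01 to 9.21 (UV-donor) and 8.78 to 8.97 (naive-donor). These averages were carried by Itgae (difference 0.77) and Wdfy4 (0.45), whereas the median difference of the list was 0.04 and Cd8a differed by -0.11. The 2 tested eosinophil markers were not called either, with averages of 9.29 to 9.51 (UV-donor) and 8.79 to 9.08 (naive-donor). Prg2 differed by 0.75 without overlap (limma adjusted p = 0.105) and Siglecf by 0.19 with overlap (0.385). Groups without overlap, UV-donor higher, made up 12.4% of all tested genes. Below the cutoff and not tested, Epx was higher on every UV-donor array (difference 0.40) and Il5ra lower on every one (-0.11).

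**Figure D3:**
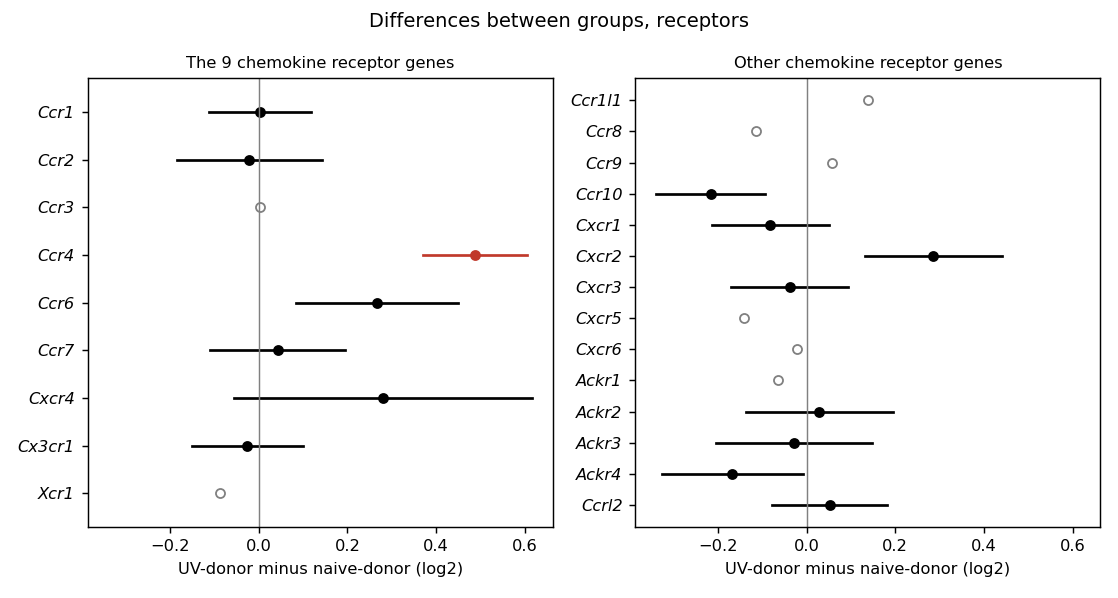
Differences between the UV-donor and naive-donor groups on the log2 scale for the 9 chemokine receptor genes (left) and 14 other chemokine receptor genes (right), n = 3 arrays per group. Filled points with 95% intervals are tested genes, open grey points are genes below the cutoff for dim genes, and red marks a call. Ccr4 at 0.49 is the single red point, and the intervals of Ccr6 (0.27) and Cxcr2 (0.29) lie above 0 without a call.

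Of the 7 tested receptors, 5 differences were positive and 2 negative, with a median of 0.04. The median over all tested genes was 0.0016. Without overlap were 2 of the 7, both higher in the UV-donor group, and 21.8% of all tested genes (12.4% higher and 9.37% lower). An unadjusted p under 0.05 was reached by the same 2 receptors and by 15.1% of all tested genes (9.6% higher and 5.49% lower).

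Ccr1, Ccr2, Ccr3 and Xcr1 lie together on chromosome 9, in the order Xcr1, Ccr1, Ccr3 and Ccr2, with Ccr1l1, an orphan relative of Ccr1, between Ccr1 and Ccr3. None of these 5 was called. The 2 of them that were tested, Ccr1 and Ccr2, are the genes with nearly coinciding groups described above. Ccr4 and Cx3cr1 are elsewhere on chromosome 9. The 2 nearest named protein-coding genes on either side of Ccr4 showed no call: Glb1 differed by -0.07, Tmppe by 0.0082, Trim71 by -0.03 and Cnot10 by 0.10 (limma adjusted p from 0.342 for Cnot10 to 0.969 for Tmppe). Cnot10 had groups without overlap. CC receptors of this cluster are close relatives in sequence, and whether their probe sets share sequence was not checked.

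Among other chemokine receptors, 14 of 15 listed genes had a probe set of their own, and 8 were bright enough to be tested. Of these 8, 0 were called by limma, and 1 higher and 2 lower genes had an unadjusted p under 0.05. Of all tested genes 0.172% were called, and 9.6% were higher and 5.49% lower at that unadjusted p. Groups did not overlap for 1 higher and 1 lower of the 8, and for 12.4% and 9.37% of all tested genes. Cxcr2, the neutrophil receptor for CXCL1 and CXCL2, had log2 signals of 12.80, 12.64 and 12.59 on the UV-donor arrays and 12.33, 12.45 and 12.39 on the naive-donor arrays. Its groups did not overlap, and their means differed by 0.29 (95% interval 0.13 to 0.44, limma adjusted p = 0.149). Ccr10, a receptor for CCL27 and CCL28, had signals of 6.98 to 7.06 in the UV-donor group and 7.17 to 7.31 in the naive-donor group, again without overlap. It differed in the other direction, by -0.22 (95% interval -0.34 to -0.09, limma adjusted p = 0.157). The scavenging receptor Ackr4, which binds the CCR7 ligands, differed by -0.17 with overlapping groups (limma adjusted p = 0.305). Only 4 of its 6 signals reached the cutoff for dim genes, and those below it were UV-donor arrays. Its UV-donor mean of 6.54 was under the cutoff, so Ackr4 entered the test through its naive-donor signals. Cxcr1 (-0.08), Cxcr3 (-0.04), Ackr3 (-0.03), Ackr2 (0.03) and Ccrl2 (0.05) gave limma adjusted p-values between 0.53 and 0.899. For the 8 genes together the median difference was -0.03.

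No ligand of the 9 receptors was called. Of 18 listed ligands 17 had a probe set of their own, 12 were tested by limma, and 1, Ccl11, had an unadjusted p under 0.05, UV-donor lower. Of all tested genes 0.172% were called, and 5.49% were lower at that unadjusted p. Both ligands of CCR4 had overlapping groups. Ccl17 had log2 signals of 14.41, 14.37 and 14.37 on the UV-donor arrays and 14.38, 14.35 and 14.39 on the naive-donor arrays, a difference of 0.0072 (95% interval -0.09 to 0.11). Ccl22 had signals of 13.39, 13.45 and 13.39 on the UV-donor arrays and 13.41, 13.34 and 13.41 on the naive-donor arrays, a difference of 0.02 (95% interval -0.09 to 0.13).

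The CCR3 ligands, the eotaxins, had lower UV-donor values without a call. Ccl11 had log2 signals of 6.53, 6.76 and 6.64 on the UV-donor arrays and 6.84, 6.82 and 6.89 on the naive-donor arrays, a difference of -0.21 (limma adjusted p = 0.199). Ccl24 differed by -0.10 (0.401). Groups did not overlap, UV-donor lower, for Ccl11, Ccl24 and the CCR1 ligand Ccl6, with gaps of 0.06, 0.02 and 0.02. Such groups made up 9.37% of all tested genes, against 3 of the 12 tested ligands. The CCR1 ligands Ccl3 (-0.0082), Ccl5 (-0.02), Ccl6 (-0.04) and Ccl9 (-0.05) and the CCR2 ligands Ccl2 (0.06) and Ccl7 (-0.04) lay near 0, with limma adjusted p-values from 0.599 to 0.955. So did the CCR7 ligand Ccl19 (-0.05) and the fractalkine gene Cx3cl1 (0.0043). The single ligands of CCR6, CXCR4 and XCR1 on the list, Ccl20, Cxcl12 and Xcl1, were below the cutoff, as were Ccl8 and Ccl12. The median difference of the 12 was -0.03.

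Among genes that carry or damp the signal of chemokine receptors none was called, and differences ran from -0.11 to 0.85. Of 25 listed genes the 24 with a probe set of their own were tested, 16 with positive and 8 with negative differences, and 6, all higher, had an unadjusted p under 0.05. Their median difference was 0.04. Groups did not overlap for 8 of the 24, 6 of them higher in the UV-donor group. Of all tested genes, 21.8% had groups without overlap (12.4% higher), and 9.6% were higher at an unadjusted p under 0.05. Rgs18, a regulator of G protein signalling of platelets and myeloid cells that switches off G alpha subunits, averaged 9.58 ± 0.30 in the UV-donor group and 8.73 ± 0.26 in the naive-donor group (SD, n = 3 each). All 3 UV-donor values lay above the naive-donor values by at least 0.38. The difference was 0.85 (SE 0.16, 95% interval 0.47 to 1.23), or 1.80-fold, and larger than that of Ccr4, but with a wider spread it did not pass (limma adjusted p = 0.109).

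Its relative Rgs1, which restrains chemokine responses of lymphocytes, had signals of 8.13, 8.10 and 8.08 on the UV-donor arrays and 7.90, 7.82 and 7.80 on the naive-donor arrays, a difference of 0.26 (limma adjusted p = 0.105). Grk3, a kinase that marks activated receptors for arrestin, had signals of 9.19, 9.31 and 9.09 on the UV-donor arrays and 8.74, 8.76 and 8.91 on the naive-donor arrays, a difference of 0.39 (0.101). The G protein subunit Gng2 differed by 0.23 (0.17) and Pik3cg, the catalytic subunit of the PI3 kinase that G beta-gamma activates, by 0.20 (0.197). These 5 genes had the smallest p of the list, and in each the groups did not overlap. The inhibitory G protein Gnai2 differed by 0.05 (0.662), the arrestins Arrb1 by 0.01 (0.934) and Arrb2 by 0.05 (0.763), and the migration gene Dock2 by -0.09 (0.482). These 4 were picked after their values were seen, to show the core of the pathway.

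Receptors for other chemoattractants were fixed as a further list, of which 8 of 10 genes had a probe set of their own and were tested. Of the 8, 0 were called by limma, and 2 higher and 1 lower had an unadjusted p under 0.05. Of all tested genes 0.172% were called, and 9.6% were higher and 5.49% lower at that unadjusted p. Groups did not overlap for 2 higher and 1 lower of the 8, and for 12.4% and 9.37% of all tested genes. Gpr183, the oxysterol receptor that positions dendritic cells in lymphoid tissue, had log2 signals of 9.86, 9.94 and 9.73 on the UV-donor arrays and 9.42, 9.52 and 9.22 on the naive-donor arrays. Its groups did not overlap, and the difference was 0.46 (95% interval 0.26 to 0.65, limma adjusted p = 0.105). Ptafr, the receptor for platelet-activating factor, had signals of 11.62, 11.59 and 11.63 on the UV-donor arrays and 11.80, 11.82 and 11.78 on the naive-donor arrays. It was lower on every UV-donor array, with a mean difference of -0.18 (95% interval -0.29 to -0.08, limma adjusted p = 0.149). The sphingosine 1-phosphate receptor S1pr3 differed by 0.21 (0.197), the leukotriene B4 receptor Ltb4r1 by 0.06 (0.673) and the complement receptor C3ar1 by -0.05 (0.662). The median difference of the 8 was 0.04.

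**Figure D4:**
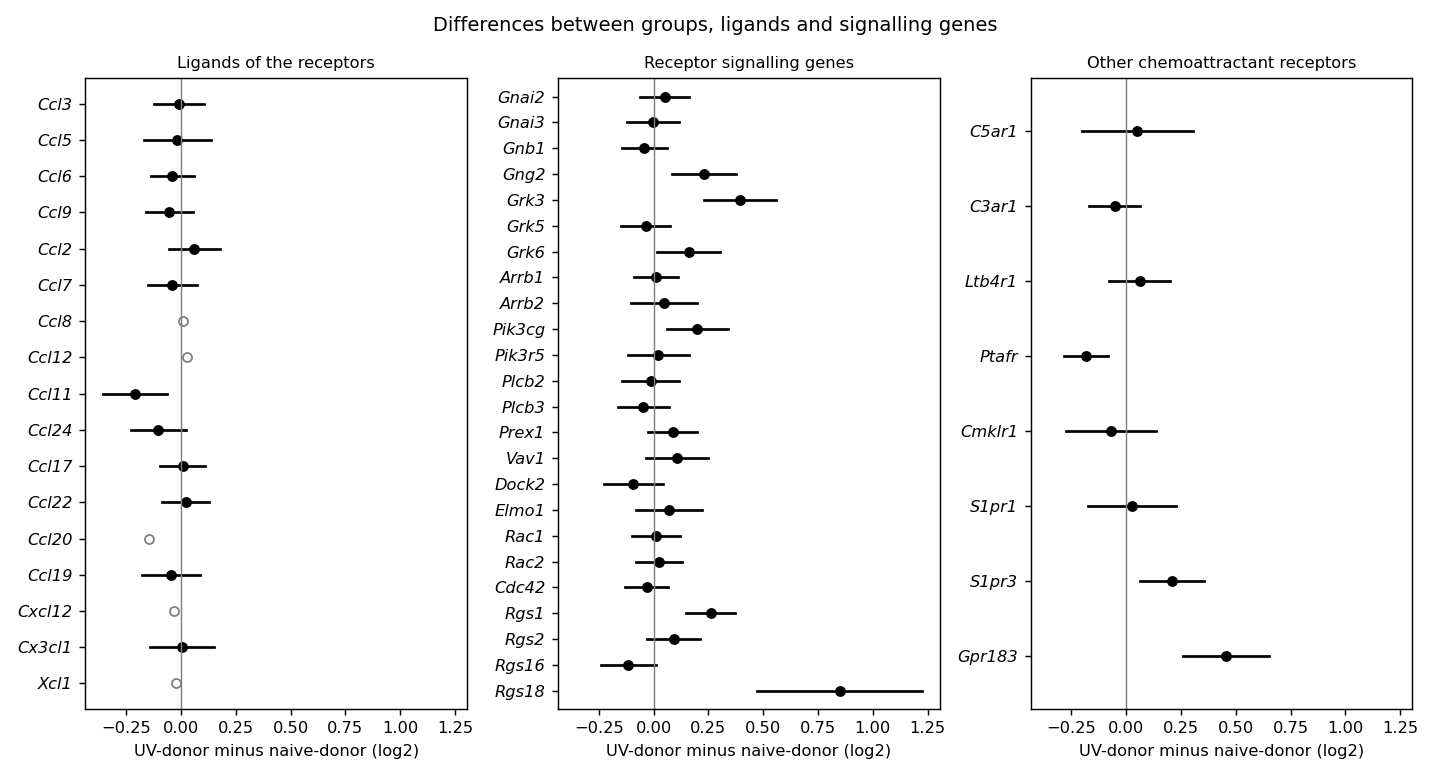
Differences between the UV-donor and naive-donor groups on the log2 scale for ligands of the 9 receptors, for signalling genes and for other chemoattractant receptors, n = 3 arrays per group. Filled points with 95% intervals are tested genes and open grey points are genes below the cutoff. No gene is called: the ligands cluster around 0, Rgs18 lies farthest right at 0.85, and Gpr183 follows in its list at 0.46.

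The 5 genes whose values over the 6 arrays lay nearest to those of Ccr4 were found by the root mean square difference of log2 signals, each gene centred on its own mean. They were Jaml, an adhesion molecule of myeloid cells (0.03), the cytochrome P450 gene Cyp4f16 (0.05), the neutrophil granule gene Ltf (0.06), Rad51b of recombination repair (0.06) and the lectin gene Cd209a (0.06). Since the measure rewards a like difference between groups, it tends to return genes with a difference near that of Ccr4. The differences were 0.45 for Jaml, 0.50 for Cyp4f16, 0.54 for Ltf, 0.40 for Rad51b and 0.59 for Cd209a, and all but Rad51b (limma adjusted p = 0.0627) were called.

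**Figure D5:**
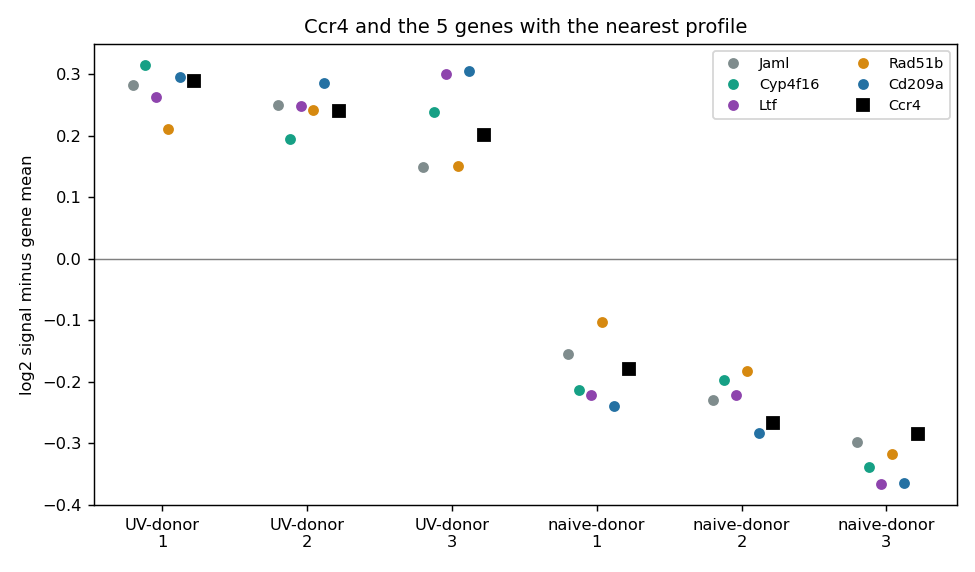
Log2 signal minus the gene's mean over the 6 arrays for Ccr4 (black squares) and the 5 genes with the nearest values (coloured points). In all 6 genes the 3 UV-donor arrays lie above 0 and the 3 naive-donor arrays below it.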

How the data were processed

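RNA of 6 preparations was measured on Affymetrix Mouse Gene 1.0 ST arrays. The deposited table holds 1 log2 signal per probe set and array, as its range of 2.52 to 14.6 and array medians of 7.16 to 7.23 show. RMA, oligo and limma are named in the submitters' processing notes, without versions or summary level. Scan dates and hybridisation batches are not given in the sources used here, and no batch was examined. The values were used as deposited.

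Of 35556 probe sets, 21789 carried 1 gene symbol in the platform annotation, 1621 several and 12146 were unlisted. 21698 were matched by identifier to a RefSeq table (GRCm38.p6), and 0 symbols changed. The brightest 1-symbol probe set stood for each of 19938 genes, and 13956 above the 30th percentile of mean signal were tested. The fit was made in R 4.3.3 with lmFit and eBayes of limma 3.58.1 under default settings. With 3 arrays a side the smallest two-sided exact permutation p is 0.1, and a call therefore relies on the variance that limma pools over genes. The number of arrays limits the precision. The fit was tested on simulated data.

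All 9 receptors are named, with any gene of the other receptor and ligand lists. From the signalling and chemoattractant lists the 5 genes of smallest p are named, and for a called receptor the 5 nearest profiles. Genes named from marker lists were taken from the called genes, the 3 of smallest p and dim defining markers, and not all of these are named. Genes named beyond this are Itgax, Gnai2, Arrb1, Arrb2, Dock2 and the neighbours of Ccr4. The members and lists were chosen with earlier results of these data known. Alternatives covered dim filters, scaling, variance priors, array weights, probe set summaries, thresholds, the replicate number as a block and leaving out each array. Figures were drawn with matplotlib 3.10.9.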

Additional observations from a re-analysis of the deposited data

How the results depend on the processing

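The number of called receptors among the 9 was 1, and 0 with a 50th percentile filter, which drops Ccr4 and Ccr6 from the test, 0 with all probe sets, 0 with the replicate block, 2 at an unadjusted p under 0.05 and 0 to 1 with single arrays left out. The number of all called genes was 24, and 43 with centred array medians, 43 with array weights (39 higher, 4 lower), 45 with a robust prior that follows intensity (42 higher, 3 lower), 70 at an adjusted p under 0.10, 2106 at an unadjusted p under 0.05, 0 with all probe sets or the replicate block, and 1 to 32 with single arrays left out. Called genes among other receptors, ligands, signalling genes and other chemoattractant receptors numbered 0 under every alternative run except an unadjusted p under 0.05, where they were 3, 1, 6 and 3.

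Ccr4 kept its direction throughout, with differences of 0.47 to 0.53 and 0.46 to 0.52 with single arrays left out. Its limma adjusted p was 0.069 with the replicate block (difference 0.49) and 0.271 with all probe sets (0.49). In the other alternatives that tested it, all arrays included, it lay between 0.0115 and 0.0237. Deviations of same-numbered arrays from their group means correlated at -0.13, -0.22 and 0.15. The labels do not say that same-numbered arrays are pairs, and these correlations cannot decide it. Signs near 0 turned without any call. Ccr1 was -0.013 with cyclic loess, -0.018 with quantile normalization, -0.026 with array weights and -0.024 to 0.025 with single arrays left out. Ccr2 was 0.014 with centred medians and -0.083 to 0.020 with single arrays left out, Cx3cr1 0.0090 with centred medians, and Ccr7 -0.0074 to 0.104 with single arrays left out. Ccr6 (0.19 to 0.31, and 0.21 to 0.36 with single arrays left out) and Cxcr4 (0.17 to 0.31, and 0.13 to 0.36) kept their direction and never reached an adjusted p under 0.05. Signal near the cutoff limits Ccr4 and Ccr6, and Ccr3 and Xcr1 lie below it.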
